A study of Homo sapiens with 8 samples.

Results

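The position of HA-LSF peaks was examined around CDC20, MAD2L1, CCNB1, TYMS, TFCP2, UBP1 and GAPDH, genes with roles in mitosis, in S phase, in the LSF family itself or as a reference transcript. The genes were given by name, and each was taken as the interval it occupies in the hg19 build of the human genome. They are 7 of 59792 genes in the RefSeq table used for names, and they were set against 2411 peaks from 2 lists. LSF is a transcription factor of the CP2 family encoded by TFCP2, and UBP1 encodes its close relative LBP1A. CDC20 activates the anaphase-promoting complex, the ubiquitin ligase that starts chromosome separation, and MAD2L1 encodes the spindle checkpoint protein that holds CDC20 in check until chromosomes are attached. CCNB1 encodes cyclin B1, the partner of CDK1 at mitotic entry and a target of that ligase. Of the other members, TYMS encodes thymidylate synthase, which makes the thymidine nucleotide needed in S phase and is a known LSF target, and GAPDH encodes a glycolytic enzyme that serves as the reference transcript in RNA measurements. The set is therefore not mitotic alone.

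The peaks came from a stable line made from HEK293T, an established human embryonic kidney line, in which HA-tagged LSF is expressed from an inducible system. The peaks therefore come from HA ChIP of cells with the tagged, induced protein and do not describe LSF at its native level. Expression was induced with 5 μM RSL1 ligand for 24 h, crosslinked chromatin was cut with micrococcal nuclease, which digests the DNA between nucleosomes, and fragments the size of 1 nucleosome (mono) or of 2 (di) were sequenced separately from HA ChIP and from input. Of the 8 libraries, the 4 of induced cells stand behind the lists, 1 ChIP and 1 input library for each size class, and the 4 of uninduced cells, labelled with the inducer DMSO, were not analysed here. Whether a called peak would also appear in HA ChIP without induction was therefore not tested. No value has a replicate, read depths are unknown, and every comparison is a description with no p-value. The mono-nucleosome list held 1983 peaks and the di-nucleosome list 428 that ended within their chromosome, of which 583 and 109 lay on the 6 chromosomes that carry the genes. Each peak has a score from the authors' caller, at least 50.0 in either list, and the median scores were 55.9 (mono) and 56.6 (di). The score was used to rank and filter peaks within each list.

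No peak of either list lay within 20 kb of any of the 7 genes. At 50 kb, 1 gene had a mono-nucleosome peak, and this gene was CDC20. At 200 kb the count rose to 3 genes, CDC20, TFCP2 and GAPDH, each with 1 mono-nucleosome peak, whereas the di-nucleosome list had none within 200 kb of any gene. These 3 peaks all scored below the median of their list, and among peaks at or above it 0 genes had one within 200 kb, where the shares of placements, counted as described next, sum to 0.743 genes. To read these counts, an interval of the same length as each gene was placed every 100 bp along its chromosome between the outermost peaks of either list, and the share of placements with a peak was counted. Summed over the 7 genes, these shares amounted to 0.265 genes at 20 kb, 0.492 at 50 kb and 1.47 at 200 kb in the mono-nucleosome list. In the di-nucleosome list the sums were 0.0419, 0.0796 and 0.264 genes. Peaks are thus sparse on this scale, and most places on these chromosomes also had none within 20 kb. With 7 genes and no replicate, the count of 3 against 1.47 is given as it stands.

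**Figure D1:**
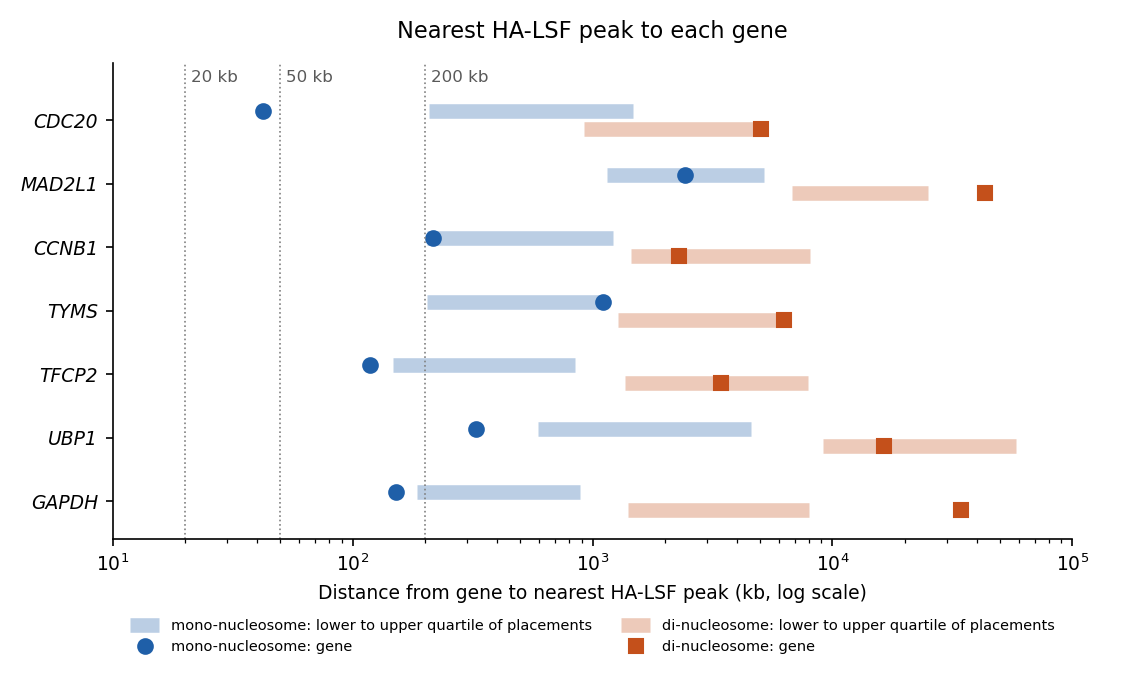
Distance in kb (log scale) from each gene to the nearest HA-LSF peak of the mono-nucleosome list (circles) and the di-nucleosome list (squares), with bars from the lower to the upper quartile of distances over all placements of an interval of the gene's length on the same chromosome; dotted lines mark 20, 50 and 200 kb. All 14 points lie to the right of the 20 kb line, and the mono-nucleosome point of CDC20, at 42.2 kb, is the only one to the left of the 50 kb line.

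The DNA just before the start of 3 of the genes is shown to let the reader see what lies at promoters without a called peak. The sequences are the 250 bases before the RefSeq start in GRCh38.p14, read 5′ to 3′ on the strand of the gene. They were searched on both strands for the LSF motif, taken as 2 half-sites, each CNAG or CNGG, in the same direction with 6 bases between them. Capitals mark the matches. CDC20 is shown as the gene nearest to a peak (chr1:43358731-43358980, plus strand), TFCP2 as the gene that encodes LSF itself (chr12:51173136-51173385, minus strand), and TYMS as the known LSF target (chr18:657403-657652, plus strand).
CDC20: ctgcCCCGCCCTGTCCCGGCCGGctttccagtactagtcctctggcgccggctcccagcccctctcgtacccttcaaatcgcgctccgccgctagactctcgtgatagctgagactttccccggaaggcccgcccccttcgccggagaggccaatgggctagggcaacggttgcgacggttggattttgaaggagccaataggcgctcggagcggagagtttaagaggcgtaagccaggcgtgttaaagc
TFCP2: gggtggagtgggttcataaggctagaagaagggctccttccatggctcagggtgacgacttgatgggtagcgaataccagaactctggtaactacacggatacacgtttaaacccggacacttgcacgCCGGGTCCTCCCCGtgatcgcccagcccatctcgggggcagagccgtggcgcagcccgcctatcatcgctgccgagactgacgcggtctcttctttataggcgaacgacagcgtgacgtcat
TYMS: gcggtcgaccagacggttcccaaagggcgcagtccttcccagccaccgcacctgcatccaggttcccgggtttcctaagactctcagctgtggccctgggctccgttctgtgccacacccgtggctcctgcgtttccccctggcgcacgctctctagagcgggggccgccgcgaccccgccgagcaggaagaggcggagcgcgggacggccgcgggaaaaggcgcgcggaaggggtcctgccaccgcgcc
CDC20 had 2 overlapping matches, from 246 to 228 bases before the start, TFCP2 had 1, from 122 to 109 bases before it, and TYMS had none. MAD2L1 had 1 match, CCTGCGCGAACCGG as read on the gene's strand, from 108 to 95 bases before its start. The matches of CDC20, TFCP2 and MAD2L1 lay on the strand opposite the gene, so the letters printed are their reverse complement. UBP1 had 5 matches, and CCNB1 and GAPDH had none. Thus 4 of 7 windows held a match, beside 54.3% of all 35116 RefSeq windows of this length, so the letters are common before gene starts. With 5 bases between the half-sites 6 of 7 windows matched, beside 53.6% of all windows, and TFCP2, MAD2L1 and CDC20 matched at both spacings. At 5 bases TYMS had 2 matches, CCNB1 and GAPDH had 3 each, and UBP1 had 0, so these 4 genes changed with the spacing. The RefSeq start used for these windows was 994 bp from the 5′ end of the gene model for UBP1 and 747 bp for GAPDH, and at the 5′ end for the others. A match is a description of letters and not a measured site, and these GRCh38.p14 positions were not compared with any peak.

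CDC20 lies on chromosome 1 from 43824626 to 43828873 on the plus strand. Its nearest mono-nucleosome peak, chr1:43871078-43871656, was 42.2 kb downstream of the gene and 46.5 kb from its start site. This peak was 579 bp wide with a score of 53.2, the rank of 1304 among 1983, and 34.2% of the list scored lower. The next one downstream lay beyond 200 kb, and the nearest upstream peak was 2.50 Mb away with a score of 50.2. A placement of the length of CDC20 had a mono-nucleosome peak within 20 kb in 3.24% of cases, within 50 kb in 7.32% and within 200 kb in 24.2%. The peak at CDC20 was nearer than most: 6.28% of placements had one as near or nearer, and the median distance over placements was 556 kb. The di-nucleosome list gave the opposite order. Its nearest peak to CDC20, chr1:38802401-38803757 with a score of 51.1, was 5.02 Mb upstream, and 76.8% of placements had one as near or nearer. On the downstream side the nearest di-nucleosome peak was 8.28 Mb away with a score of 51.4. The corresponding shares of placements were 0.802% within 20 kb, 1.77% within 50 kb and 6.26% within 200 kb. The mono-nucleosome peak 42.2 kb from CDC20 overlapped no di-nucleosome peak, as did 94.8% of all peaks of its list, and the closest one was 5.07 Mb from it. Within 5 Mb of the gene the mono-nucleosome list held 11 peaks, against a mean of 7.77 over placements, and 22.8% of placements had as many or more. Within 1 Mb it held 2, against a mean of 1.58, and 41.8% of placements had as many or more. Among mono-nucleosome peaks at or above the median score, the nearest to CDC20 was 2690 kb away.

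MAD2L1, on chromosome 4 from 120980579 to 120988013 on the minus strand, was the gene farthest from a peak in both lists when all peaks were counted. Its nearest mono-nucleosome peak, chr4:118548945-118549451, was 2.43 Mb downstream with a score of 68.2, and 83.3% of the list scored lower. On the upstream side the nearest peak was 19.6 Mb away with a score of 59.9. Among mono-nucleosome peaks at or above the median score, MAD2L1 stayed at 2430 kb. CDC20, at 2690 kb, and TYMS, at 7700 kb, were then farther from a peak. The nearest di-nucleosome peaks were 43.2 Mb upstream, at chr4:164194549-164195442 with a score of 54.2, and 49.7 Mb downstream with a score of 56.3. Chromosome 4 itself was poor in peaks, with 26 mono-nucleosome and 4 di-nucleosome calls, or 13.6 and 2.09 per 100 Mb, the rank of 22 and 20 among 23 chromosomes. The distance in the mono-nucleosome list was accordingly near the middle for that chromosome, since 45.2% of placements had a peak as near or nearer. In the di-nucleosome list 96.6% did. Within 20, 50 and 200 kb, 0.632%, 1.39% and 4.98% of placements had a mono-nucleosome peak, and 0.0876%, 0.198% and 0.75% had a di-nucleosome peak. The peak-free stretch around MAD2L1 spanned 22.1 Mb in the mono-nucleosome list, the second longest of 25 on the chromosome. Long stretches cover more positions than short ones. On their own chromosomes, those of CDC20, CCNB1, TFCP2, UBP1 and GAPDH ranked 22 of 194, 14 of 136, 26 of 116, 6 of 54 and 55 of 116.

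CCNB1 lies on chromosome 5 from 68462837 to 68474070 on the plus strand. Its nearest mono-nucleosome peak, chr5:68245606-68246308, was 217 kb upstream and thus just outside the widest window. It had a score of 55.5, with 48.5% of the list below it. Downstream of the gene the nearest peak was 3.22 Mb away with a score of 51.6. Among placements on chromosome 5, 26.1% had a mono-nucleosome peak as near or nearer, and 3.59%, 7.57% and 24.5% had one within 20, 50 and 200 kb. In the di-nucleosome list the nearest peak was 2.29 Mb downstream, at chr5:70765624-70766793, with a score of 51.2, and the nearest upstream was 26.1 Mb away with a score of 50.3. This was the shortest di-nucleosome distance of the 7 genes, with 36.3% of placements as near or nearer, but among peaks at or above the median score it was 20500 kb and that of TFCP2, at 5400 kb, was the shortest. The shares of placements with a di-nucleosome peak were 0.598% within 20 kb, 1.21% within 50 kb and 4.22% within 200 kb. Of the 3 mitotic genes, CDC20 and CCNB1 had their nearest mono-nucleosome peaks at 42.2 and 217 kb, and MAD2L1 at 2.43 Mb.

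TYMS, on chromosome 18 from 657604 to 673499 on the plus strand, lay outside the outermost peaks of its chromosome, so that every peak was downstream of it. The nearest were a mono-nucleosome peak at chr18:1779240-1779715, 1.11 Mb away with a score of 50.1, and a di-nucleosome peak at chr18:6974748-6975874, 6.30 Mb away with a score of 56.1. The former ranked 1961 among 1983 by score. Among placements on its chromosome, 75% had a mono-nucleosome peak as near or nearer, the highest such share among the genes. In the di-nucleosome list the share was 73.8%. Placements were made only between the outermost peaks, so none lay where TYMS lies. The shares of TYMS therefore cannot be set directly against those of the other genes. Placements had a mono-nucleosome peak within 20 kb in 3.80% of cases, within 50 kb in 7.71% and within 200 kb in 24.6%, and a di-nucleosome peak in 0.553%, 1.13% and 4.04%. Within 5 Mb of TYMS there were 2 mono-nucleosome peaks, against a mean of 7 over placements, but the gene lies near the end of the chromosome, where one side of that window is cut short.

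Of the genes for LSF and LBP1A, TFCP2 had a peak within 200 kb and UBP1 had none. TFCP2, on chromosome 12 from 51487446 to 51566926 on the minus strand, had a mono-nucleosome peak 118 kb upstream, at chr12:51685147-51685681, with a score of 55.3 and 47.4% of the list below it. No peak of either list overlapped TFCP2. The nearest mono-nucleosome peak downstream was 1.76 Mb away with a score of 55.6. An interval as long as TFCP2, 79481 bp, meets a peak more often than a short one, and 9.12%, 13.2% and 30.8% of placements had a mono-nucleosome peak within 20, 50 and 200 kb. A peak as near or nearer than that of TFCP2 occurred in 21.6% of placements. Within 5 Mb of TFCP2 the list held 14 peaks, the most of the 7 genes, against a mean of 8.60 over placements, and 9.74% had as many or more. Within 1 Mb it held 2, against a mean of 1.8, and 46.5% of placements had as many or more. The nearest di-nucleosome peaks were 3.43 Mb upstream, at chr12:55001282-55002673 with a score of 50.8, and 10.6 Mb downstream with a score of 54.6. A peak as near or nearer occurred in 46.1% of placements, and one within 20, 50 and 200 kb in 1.20%, 1.79% and 4.72%.

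UBP1, on chromosome 3 from 33429829 to 33481870 on the minus strand, had no peak within 200 kb in either list. Its nearest mono-nucleosome peak, chr3:33101296-33101909, was 328 kb downstream, and its score of 70.3 was the highest among the nearest peaks of the 7 genes, with 85.8% of the list below it. Upstream the nearest was 9 Mb away with a score of 60.0. Chromosome 3 had 27.8 mono-nucleosome peaks per 100 Mb, against a median of 67.5 over 23 chromosomes, and 16.3% of placements had a peak as near or nearer. The shares within 20, 50 and 200 kb were 2.50%, 4.03% and 11.1%. In the di-nucleosome list the nearest peak was 16.4 Mb downstream, at chr3:17078093-17079262 with a score of 50.3, and the next on the other side was 149 Mb away with a score of 55.8, since the list left a stretch of 166 Mb on this chromosome without a call. A di-nucleosome peak as near or nearer occurred in 32.4% of placements, and one within 20, 50 and 200 kb in 0.485%, 0.805% and 2.41%.

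GAPDH, on chromosome 12 from 6643585 to 6647537 on the plus strand, serves here as a gene with no stated link to LSF. It had a mono-nucleosome peak 151 kb upstream, at chr12:6491407-6492352, with a score of 50.3 and 3.73% of the list below it. The nearest downstream was 665 kb away with a score of 77.6. Placements of its length had a mono-nucleosome peak within 20, 50 and 200 kb in 3.59%, 8.08% and 26.7% of cases, and 21.1% had one as near or nearer, close to the 21.6% of TFCP2 on the same chromosome. Within 1 Mb of GAPDH there were 5 mono-nucleosome peaks, the most of the 7 genes, against a mean of 1.74 over placements, and 5.38% of placements had as many or more. Within 5 Mb there were 10, against a mean of 8.53, and 37.2% of placements had as many or more. All di-nucleosome peaks of chromosome 12 lay downstream of GAPDH, the nearest at chr12:40874284-40875675, 34.2 Mb away with a score of 54.6. In that list 95.5% of placements had a peak as near or nearer, and 0.462%, 1.05% and 3.98% had one within 20, 50 and 200 kb.

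**Figure D2:**
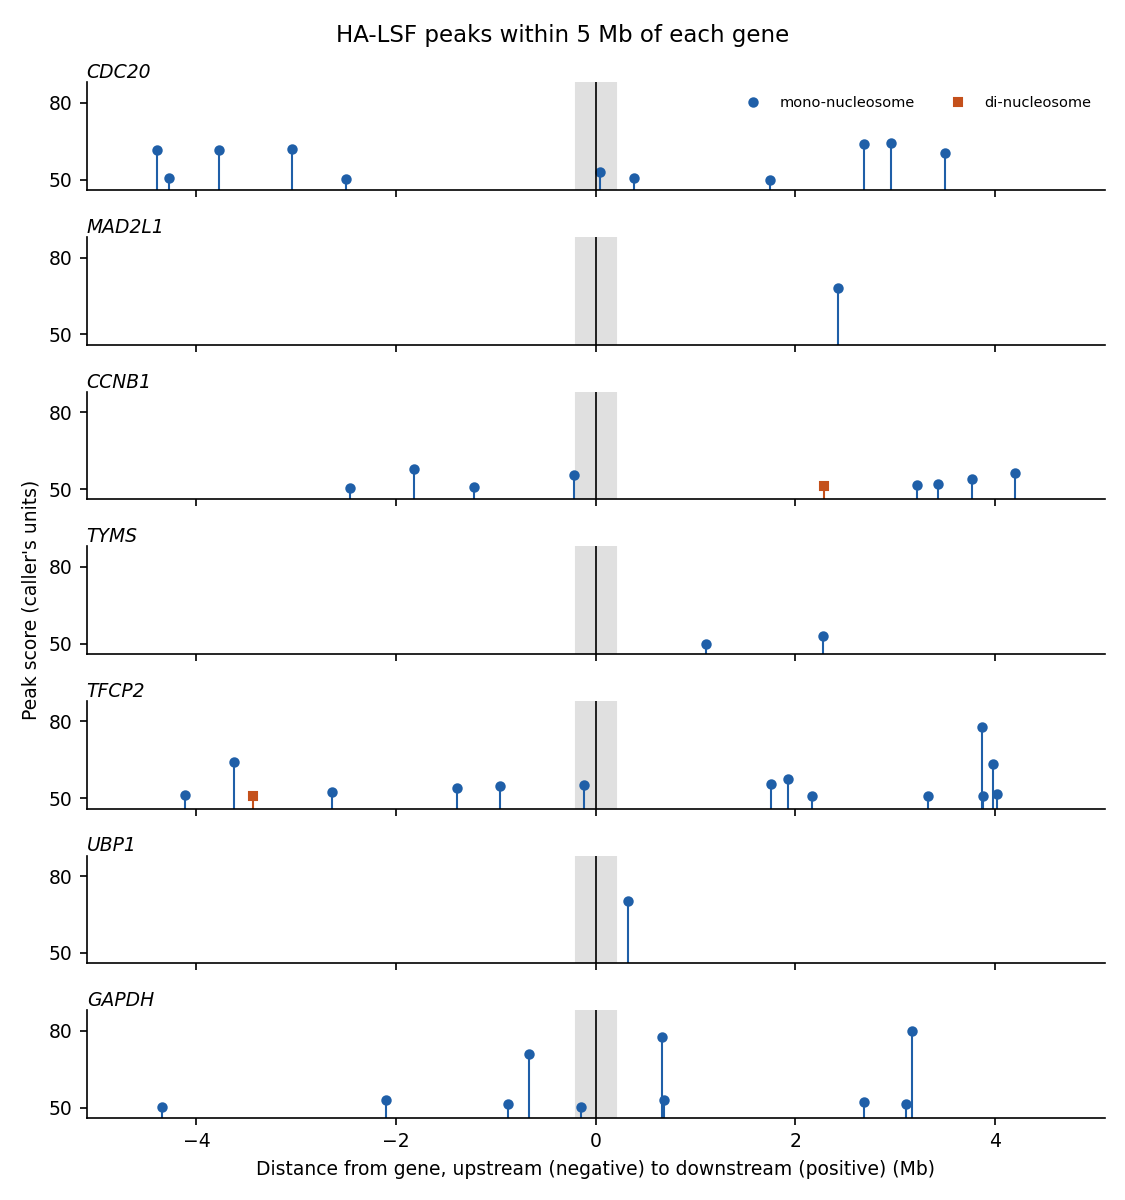
Peaks of the mono-nucleosome (circles) and di-nucleosome (squares) lists within 5 Mb of each gene, by distance in Mb from the nearer edge of the gene (upstream negative, downstream positive) and by score; the grey band spans 200 kb on each side. The bands of CDC20, TFCP2 and GAPDH each hold 1 mono-nucleosome peak, and the 2 di-nucleosome peaks drawn belong to CCNB1 and TFCP2.

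In order of the mono-nucleosome distance, CDC20 at 42.2 kb was followed by TFCP2 at 118 kb, GAPDH at 151 kb, CCNB1 at 217 kb, UBP1 at 328 kb, TYMS at 1.11 Mb and MAD2L1 at 2.43 Mb. The order of the di-nucleosome distances was different, with CCNB1 at 2.29 Mb, TFCP2 at 3.43 Mb, CDC20 at 5.02 Mb, TYMS at 6.30 Mb, UBP1 at 16.4 Mb, GAPDH at 34.2 Mb and MAD2L1 at 43.2 Mb. All 7 genes were nearer to a mono-nucleosome peak than to a di-nucleosome peak, in lists of 1983 and 428 peaks. Relative to placements on its own chromosome, the mono-nucleosome distance was under the median for 6 genes, with TYMS as the exception, and the di-nucleosome distance for 3 genes, CCNB1, TFCP2 and UBP1. By definition, as many placements lie under the median as over it. Placements are positions and not other genes, so whether other genes lie as near to a peak was not tested. TYMS, however, lies outside the stretch in which placements were made. GAPDH stood among the nearer genes in the mono-nucleosome list, between TFCP2 and CCNB1. Without replicate lists, no spread is known for any distance, and neighbours in these orders cannot be told apart by a test.

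**Figure D3:**
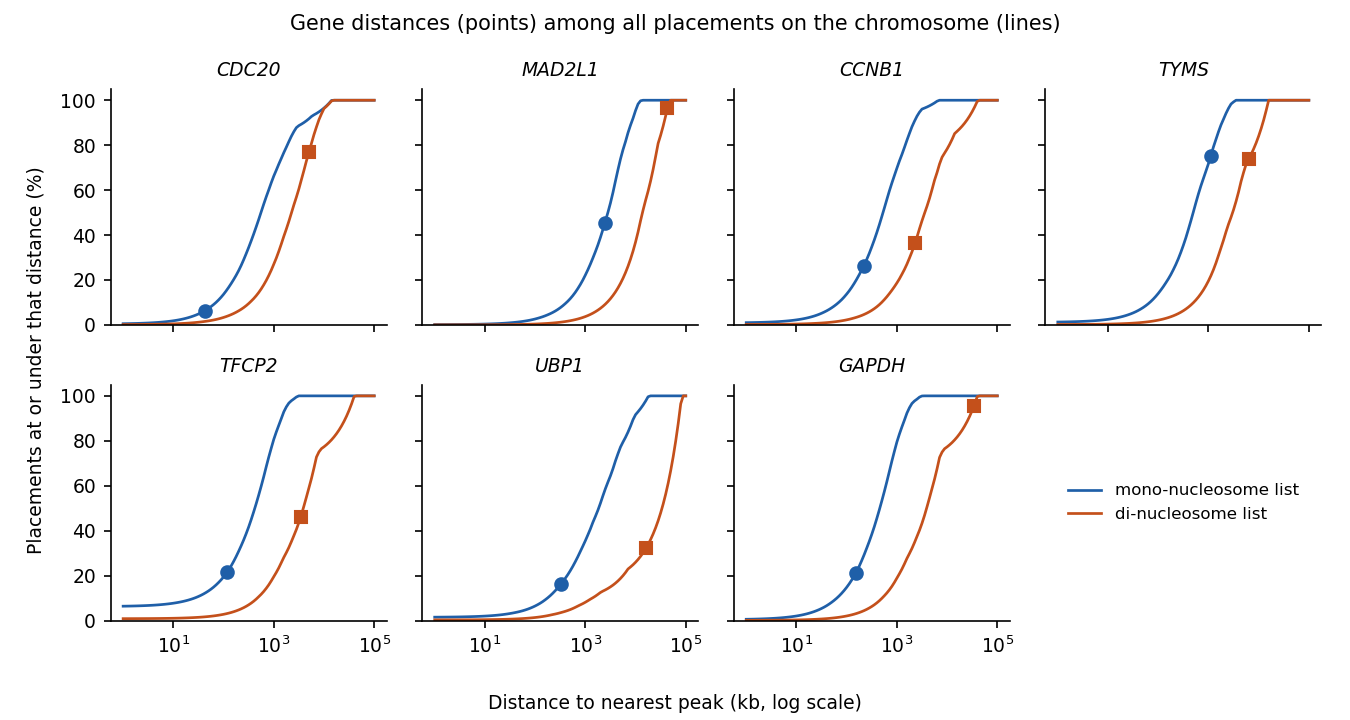
Share of placements (%) whose nearest peak lies at or under the distance on the x axis (kb, log scale), as a line per list, with the gene's own distance as a point on it (mono-nucleosome circles, di-nucleosome squares). The mono-nucleosome point of CDC20 has the lowest share of the 14, at 6.28%, and the di-nucleosome points of MAD2L1 and GAPDH are near the top, at 96.6% and 95.5%.

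Of the 14 peaks nearest to the genes, 12 scored below the median of their list, all but the mono-nucleosome peaks nearest to MAD2L1 and UBP1. Over placements the shares with a nearest peak below the median summed to 8.98 of 14, or 3.70 of 7 in the mono-nucleosome list, where 5 were seen, and 5.28 of 7 in the di-nucleosome list, where all 7 were. None of the 14 overlapped a peak of the other list, and the closest approach was 186 kb. Over all peaks, 5.24% of the mono-nucleosome and 16.8% of the di-nucleosome list overlapped a peak of the other list. Among peaks below the median score these shares were 1.62% and 6.07%. Within 5 Mb of the 7 genes there were 47 mono-nucleosome peaks with scores from 50.0 to 79.8, of which 17 scored at or above the median, and 152 peaks of the list scored higher than any of them. The 2 di-nucleosome peaks in that range scored 50.8 and 51.2. Peaks with a score over 100 were few, 80 in the mono-nucleosome and 41 in the di-nucleosome list. The nearest such mono-nucleosome peak was 102 Mb from CDC20, 112 Mb from CCNB1, 73.8 Mb from TFCP2 and 119 Mb from GAPDH, and chromosomes 3, 4 and 18, with UBP1, MAD2L1 and TYMS, had none in either list. As near or nearer were 82.5% of placements for CDC20, 62.2% for CCNB1, 61.8% for TFCP2 and 95.5% for GAPDH, with median distances over placements of 31.3 Mb for CDC20, 90.2 Mb for CCNB1 and 58.2 Mb for the other two. Groups of at least 2 mono-nucleosome peaks no more than 20 kb apart were also few, from 3 to 8 on the chromosomes that had any. The nearest was 3.87 Mb from TFCP2, 6.57 Mb from GAPDH, 20.3 Mb from TYMS, 29.5 Mb from CCNB1 and 42.5 Mb from CDC20, and the chromosomes of MAD2L1 and UBP1 had none. Among placements, 29.8%, 48.2%, 100%, 62.2% and 75.7%, in the same order, were as near or nearer. No placement lay in the stretch of chromosome that holds TYMS, so its 100% has no like comparison.

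**Figure D4:**
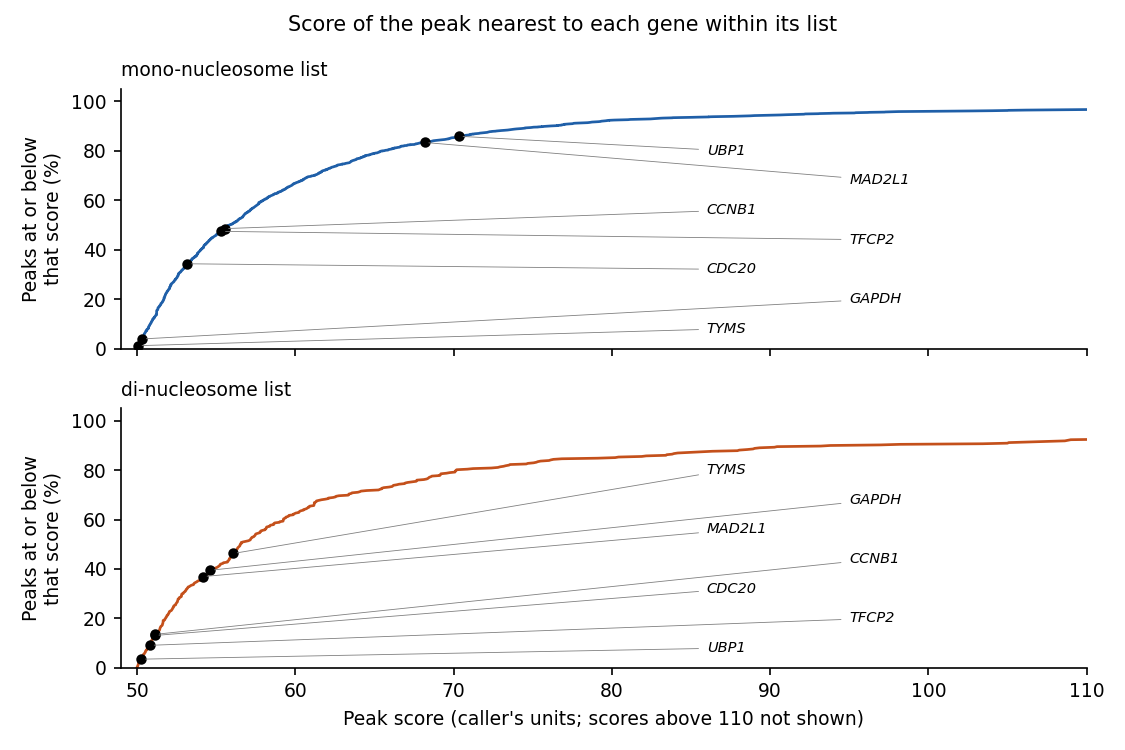
Share of the peaks of each list (%) at or below a score (x axis, caller's units, up to 110), with the peak nearest to each gene marked on the curve. In the mono-nucleosome list the marks run from 50.1 (TYMS) to 70.3 (UBP1), and in the di-nucleosome list from 50.3 (UBP1) to 56.1 (TYMS).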

How the data were processed

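HA ChIP-sequencing was analysed from 2 deposited peak lists of induced cells, ChIP over input, 1 list per DNA size. Per the labels, the submitters' processing notes name CASAVA 1.4, BWA and hg19; the peak names are those of MACS, whose version and settings are not given in the sources used here. The deposited values are peak positions in bp and a score per peak, which the authors' caller assigned and read here as proportional to the negative log10 of a p-value. Peaks were called on single libraries. The lists give no read totals, so the depth is unknown and no counting interval can be set.

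Starts were converted to count from 1. One di-nucleosome row that ended past its chromosome in hg19 (lengths from GenomeInfoDb 1.38.1) was left out. Peak numbers absent from the lists (2 and 1) fall between chromosomes 9 and X, away from every gene described. Distances run from edge to edge, and upstream and downstream follow the gene's strand. Placements, every 100 bp from the first to the last peak of either list on the chromosome, replace a random draw; stretches without sequence in hg19 were not removed. Gene intervals are those given for hg19; GRCh38.p14 (RefSeq) gave symbols, strands, gene lengths and promoter sequence only. MAD2L1 spans 7435 bp in the interval used and 11226 bp in the RefSeq gene model. All 7 genes and the lists were chosen with earlier results of these data known, and the windows of 1 and 5 Mb, the score of 100 and the groups of peaks were chosen after the values were seen. By the rule for naming, all 7 genes, their nearest peak on each side in each list, every peak within 50 kb and the highest-scoring peak within 200 kb are given.

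Distance and placement steps were tested on simulated lists. Alternatives were a score at or above the list's median, the start site in place of the gene, the peak midpoint, merging of peaks under 1 kb apart, other windows, the whole chromosome, single positions and a spacer of 5 bases. Python 3.11.15, numpy 2.4.6, pandas 2.3.3 and matplotlib 3.10.9 were used. Quantitative PCR was not analysed here.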

Additional observations from a re-analysis of the deposited data

How the results depend on the processing

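The absence of peaks within 20 kb held in both lists for a window of 10 kb, the stricter score, the start site, the peak midpoint and merged peaks, and a window of 100 kb gave 1 gene, CDC20, in the mono-nucleosome list. The counts at 50 and 200 kb rested on calls with low scores: with scores at or above the median, 0 genes had a mono-nucleosome peak within 50 kb and 0 within 200 kb. The distance of CDC20 then became 2690 kb (mono) and 22200 kb (di). Among the other genes the mono-nucleosome distance became 1820 kb for CCNB1, 7700 kb for TYMS, 1930 kb for TFCP2 and 665 kb for GAPDH, and it kept its value for MAD2L1 and UBP1. The di-nucleosome distance became 105000 kb for MAD2L1, 20500 kb for CCNB1, 47000 kb for TYMS and 5400 kb for TFCP2. None of the other settings moved a distance by more than 1.5 times.

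With the stricter score the sums of shares over the 7 genes were 0.123 at 20 kb, 0.232 at 50 kb and 0.743 at 200 kb in the mono-nucleosome list, and 0.0174, 0.0326 and 0.106 in the di-nucleosome list, because fewer peaks remain. With single positions in place of intervals as long as the gene, the sums at 20 kb were 0.168 and 0.0276. Placements over the whole chromosome stayed within 1.5 times. With a spacer of 5 bases, 6 genes had the LSF motif.

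Each ChIP library has its own input library, but no such pair has a replicate, so no paired test was possible. The lists hold called peaks only, so whether places without a peak had enough reads for a call was not tested.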
